A study of Mus musculus with 2 samples.

Results

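Paneth cell granule genes and alpha-defensins form a set of 28 protein-coding genes out of 45706 gene IDs in the count files. The members were chosen by name: 22 genes whose symbol in GENCODE M21 begins with Defa and a number, and the 6 further granule genes Lyz1, Mmp7, Ang4, Itln1, Mptx1 and Mptx2. RNA sequencing had been done on intestinal stem cells of the strain Lgr5-EGFP-IRES-creERT2, whose stem cell gene Lgr5 drives a green fluorescent protein (GFP) and a tamoxifen-inducible Cre recombinase. Cells of high GFP were collected from mice aged 4 months. The fasted group is 1 library from mice under fasting and the fed group is 1 library from mice with free access to standard chow; both carry the reporter allele. How long the mice fasted and how many stand behind a library is not in the labels, and the cells were sorted on GFP alone as far as the labels say.

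Paneth cells lie between the stem cells at the base of small intestinal crypts and secrete granules that kill bacteria in the crypt lumen. Alpha-defensins, called cryptdins in mouse, are made as inactive precursors that the protease matrilysin, the product of Mmp7, cuts into short peptides that disrupt bacterial membranes. The same granules hold lysozyme (Lyz1), the ribonuclease angiogenin 4 (Ang4), the lectin intelectin 1 (Itln1) and the mucosal pentraxins (Mptx1 and Mptx2). WNT signals acting through TCF transcription factors are needed in mouse for the expression of cryptdins and Mmp7, and stem cells answer to the same signals.

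The alpha-defensins share so much sequence that reads cannot always be given to 1 copy, and the coding sequences of 3 copies are shown for that reason. They were read from GENCODE M21 transcripts on GRCm38, and capitals mark each base that differs from Defa24, the copy with the most counts. Defa24 lies at chr8:21734494-21735471, Defa30 at chr8:21134642-21135598 and Defa3 at chr8:21287409-21288377, all on the plus strand.
Defa24: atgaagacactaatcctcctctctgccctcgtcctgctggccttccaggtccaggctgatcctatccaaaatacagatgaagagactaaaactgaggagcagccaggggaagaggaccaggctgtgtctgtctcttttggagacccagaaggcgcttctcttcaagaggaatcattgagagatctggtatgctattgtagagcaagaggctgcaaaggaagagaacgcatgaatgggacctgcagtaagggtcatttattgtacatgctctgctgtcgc
Defa30: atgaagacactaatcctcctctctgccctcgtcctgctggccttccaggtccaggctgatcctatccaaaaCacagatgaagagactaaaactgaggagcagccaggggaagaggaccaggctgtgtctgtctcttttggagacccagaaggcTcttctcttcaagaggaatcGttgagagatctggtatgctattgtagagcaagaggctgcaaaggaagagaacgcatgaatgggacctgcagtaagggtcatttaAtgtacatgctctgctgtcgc
Defa3: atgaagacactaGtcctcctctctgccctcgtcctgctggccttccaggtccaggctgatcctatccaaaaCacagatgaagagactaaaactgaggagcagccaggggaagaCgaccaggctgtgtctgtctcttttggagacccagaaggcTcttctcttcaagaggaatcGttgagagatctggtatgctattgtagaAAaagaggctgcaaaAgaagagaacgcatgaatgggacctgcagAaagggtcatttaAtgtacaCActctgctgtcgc
Each of these coding sequences is 279 bases long. Defa30 differs from Defa24 at 4 bases and Defa3 at 12. The 22 copies lie on chromosome 8 between bases 21025545 and 21735471, a stretch of 709.9 kb, 21 of them on the plus strand and 1, Defa29, on the minus strand. Each has 2 exons in the transcript used and an exon length between 279 and 508 bases. Across the 231 pairs of copies the coding identity ran between 44.3% and 100%, with a median of 83.2%, and 5 pairs were identical. For 17 of 22 copies the nearest other copy was more than 95% identical.

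Annotated transcripts allow a measure of how much of each copy is its own. Each transcript was cut into all windows of 50 bases, and a window was called own when it occurred in no transcript of another gene on either strand. Own windows made up 71.9% of Defa24, 47.6% of Defa30, 27.1% of Defa21 and 8.05% of Defa17. The 6 other granule genes had between 82.0% and 99.0% own windows. Of the 22 defensins, 10 had counts and 12 had none in either library. A count of 0 allows up to 0.598 CPM (counts per 1000000 counts of the library) of counted reads in the fasted and 0.429 CPM in the fed library. The limit covers counted reads only, so for a copy with few own windows it says little about its level. Defa5, Defa36 and Defa23 had no count and only 0.306%, 4.58% and 5.25% own windows. For a copy without own windows a count of 0 sets no limit. All 10 defensins with counts had own windows, against 6 of the 12 defensins without. The 6 without counts and without own windows were Defa2, Defa20, Defa31, Defa32, Defa33 and Defa37. Own windows were also found in copies without counts: Defa27, Defa35 and Defa25 had 43.8%, 40.1% and 25.2% own windows and no count. Across the 22 copies, which share sequence and libraries, the number of own windows and the summed count had a Spearman correlation of 0.69, given as a description. The reads of copies without own windows may have been left out or given to another copy by the authors' counting, which was not tested, so the defensin sum is a sum of the reads that were counted.

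**Figure D1:**
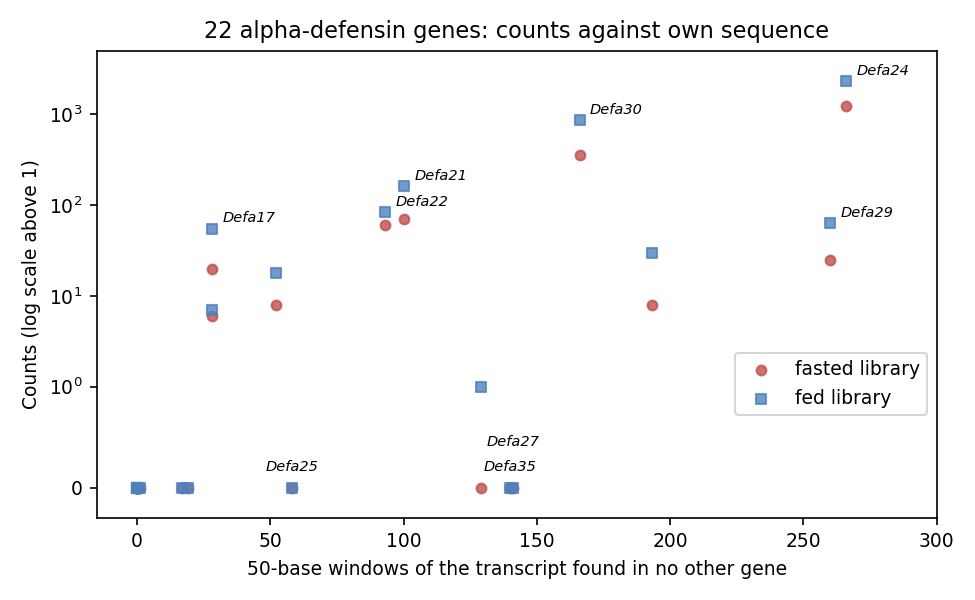
Counts of the 22 alpha-defensin genes (vertical axis, logarithmic above 1) against the number of 50-base windows of each transcript that occur in no other gene (horizontal axis), for the fasted library (red circles) and the fed library (blue squares). The copies at 0 on the vertical axis include all 6 that have no window of their own, and also Defa25, Defa27 and Defa35, which have some.

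The defensin sum was lower in the fasted library. It came to 1774 counts in the fasted library (353.4 CPM) and 3613 counts in the fed library (517.2 CPM). After scaling for library size this was a log2 ratio of -0.53 (95% counting interval -0.61 to -0.45), or 0.693-fold. Here and below a ratio is fasted over fed, scaled by median-of-ratios size factors, and its exact Clopper-Pearson interval covers counting error only. There was 1 library per group, so no test was possible and the spread between mice is unknown. In such bulk libraries fewer cells of a type and less of its RNA per cell cannot be told apart.

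A gene counted as measured when its mean over both libraries reached 1 CPM and its counts together reached 20. It was called higher or lower when the difference reached 2-fold and the interval left out a ratio of 1. Of the 28 members 14 were measured: 8 defensins and all 6 other granule genes. Of these 14, 2 were called higher and 1 was called lower, where 2.51% of all 12026 measured genes were called higher and 1.91% lower. At a threshold of 1.5-fold, 6 of the 14 were lower, where 5.05% of all measured genes were, and 2 were higher, where 5.11% were. The 6 were Defa30, Defa21, Defa29, Defa17, Defa26 and Mptx2. The median log2 ratio was -0.55 over the 14 measured members, -0.74 over the 8 defensins and -0.07 over the 6 other genes, beside -0.02 over all measured genes. The 14 genes that were not measured are all defensins: 12 without counts, Defa3 with 6 fasted and 7 fed counts, and Defa28 with 0 fasted and 1 fed count.

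**Figure D2:**
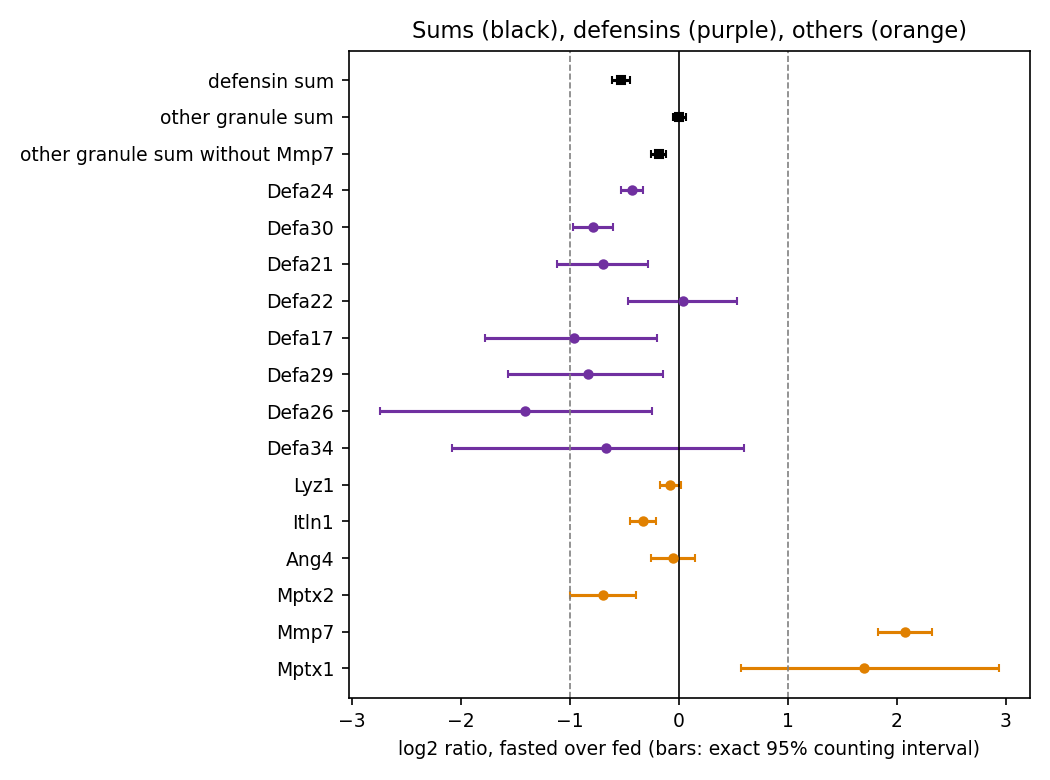
Log2 ratio of fasted to fed (horizontal axis) with the exact 95% counting interval for the 3 sums (black squares), the 8 measured defensins (purple) and the 6 other granule genes (orange). Solid and dashed vertical lines mark 0 and a 2-fold ratio, and 7 of the 8 defensins lie left of 0 while Mmp7 and Mptx1 lie right of the 2-fold line.

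Among the defensins most counts belonged to a pair of copies. Defa24 had 1220 fasted and 2327 fed counts, a log2 ratio of -0.43 (-0.53 to -0.33). Defa30 had 355 fasted and 866 fed counts, a log2 ratio of -0.79 (-0.97 to -0.61). Both were lower in the fasted library beyond counting error and within 2-fold. Defa21 had 71 fasted and 162 fed counts (-0.69, -1.12 to -0.28). Its close relative Defa22, which is 99.3% identical in coding sequence, had 61 fasted and 84 fed counts (0.04, -0.46 to 0.53). Defa22 was the only measured defensin with a ratio above 1, and its interval includes 1.

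The remaining measured copies had few counts. Defa17 had 20 fasted and 55 fed counts (-0.96, -1.78 to -0.20), and Defa29, the divergent copy on the minus strand, had 25 and 63 (-0.84, -1.57 to -0.15). Defa26 was the copy called lower, with 8 fasted and 30 fed counts (-1.41, -2.75 to -0.25), and Defa34 had 8 and 18 (-0.67, -2.08 to 0.60). In all, 7 of 8 measured defensins had a negative log2 ratio, where 52.1% of all measured genes did, and 6 of 8 had an interval wholly below 0, where 19.2% of all measured genes did. The call for Defa26 ended at a minimum of 5 CPM, which it did not reach. The 8 copies share sequence and possibly reads, so they are not separate observations.

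The make-up of the sum differed beyond counting error, with a larger share for Defa24 and a smaller one for Defa30 in the fasted library. Defa24 held 68.8% of the defensin counts in the fasted library (Clopper-Pearson 95% interval 66.6% to 70.9%) and 64.4% in the fed library (62.8% to 66.0%). Defa30 held 20.01% (18.2% to 21.95%) in the fasted and 23.97% (22.6% to 25.4%) in the fed library. Relative to Defa24 within the same library, Defa30 was lower in the fasted library by a log2 ratio of -0.36 (-0.56 to -0.15), while for each of the other 6 measured copies the interval of this ratio includes 0. When counts were divided by the number of own windows, Defa24 had 4.59 counts per own window in the fasted and 8.75 in the fed library, and Defa30 had 2.14 and 5.22. On that scale Defa17 had 0.714 fasted and 1.96 fed counts per own window, close to Defa21 with 0.710 and 1.62. Own windows assume 50-base reads counted only where unique; neither the read length nor the counting mode is given in the sources used here.

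**Figure D3:**
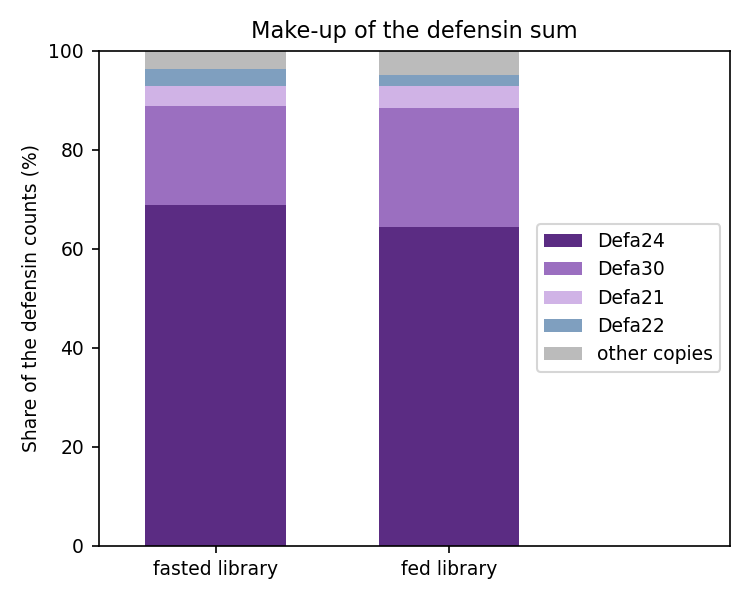
Share of the defensin counts in percent (vertical axis, stacked) taken by Defa24, Defa30, Defa21, Defa22 and all other copies in the fasted library (left) and the fed library (right). Defa24 takes 68.8% of the fasted and 64.4% of the fed counts.

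GENCODE M21 gives placeholder names to 6 genes of the same cluster that RefSeq lists as alpha-defensins, and these were not members. Gm14851 (Defa38 in RefSeq) had 139 fasted and 284 fed counts, a log2 ratio of -0.53 (-0.84 to -0.23). AY761184 (Defa39) had 274 fasted and 514 fed counts, with -0.41 (-0.63 to -0.19). With all 6 added, the defensin sum became 2197 fasted and 4427 fed counts and its log2 ratio -0.51 (-0.59 to -0.44). This addition was chosen after seeing the data.

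Mmp7, whose protease activates the cryptdin precursors, was called higher in the fasted library. It had 530 fasted and 178 fed counts, a log2 ratio of 2.07 (1.82 to 2.33) or 4.20-fold higher in the fasted library (chr9:7692090-7699585). Own windows made up 92.6% of its transcript. Within the library, there were 3.35 defensin counts per Mmp7 count in the fasted library and 20.3 in the fed library. This within-library ratio needs no scaling, and it was lower in the fasted library by a log2 ratio of -2.60 (-2.87 to -2.34). Relative to Mptx1, which was also called higher, Mmp7 had a log2 ratio of 0.37 (-0.89 to 1.53), an interval that includes 0.

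Lysozyme and angiogenin had almost the same level in both libraries before correction for exon length. Lyz1, which cuts bacterial cell walls, had 1484 fasted and 2215 fed counts, a log2 ratio of -0.08 (-0.18 to 0.02; chr10:117287797-117292868). Ang4, a microbicidal ribonuclease, had 348 fasted and 510 fed counts, a log2 ratio of -0.05 (-0.25 to 0.15; chr14:51763878-51773590). Both intervals include 0. Correction for exon length brought Lyz1 to -0.27 and Ang4 to -0.28. Lyz2, the lysozyme gene of macrophages and neutrophils, had 0 fasted and 4 fed counts, and the neutrophil genes S100a8, S100a9, Mpo and Elane had 0 counts in both libraries.

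The lectin and pentraxin genes differed in direction. Itln1, whose product binds bacterial sugars, had 878 fasted and 1560 fed counts, a log2 ratio of -0.33 (-0.45 to -0.21; chr1:171518122-171535294). Mptx2 had 134 fasted and 306 fed counts, a log2 ratio of -0.69 (-0.997 to -0.40). Its relative Mptx1 was called higher, with 23 fasted and 10 fed counts and a log2 ratio of 1.70 (0.57 to 2.93). That call ended at a minimum of 5 CPM. Both pentraxin genes together had 157 fasted and 316 fed counts, a log2 ratio of -0.51 (-0.80 to -0.23).

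Set side by side, the defensins were lower relative to the other granule genes. The 6 other genes summed to 3397 fasted counts (676.7 CPM) and 4779 fed counts (684.1 CPM), a log2 ratio of 0.0054 (-0.06 to 0.07), which turned to -0.02 under scaling to total counts and to -0.19 after correction for exon length. There were 0.522 defensin counts per count of the other genes in the fasted library and 0.756 in the fed library, a log2 ratio of -0.53 (-0.64 to -0.43). Mmp7 weighs on this comparison: without it the other genes summed to 2867 fasted and 4601 fed counts, with a log2 ratio of -0.18 (-0.25 to -0.12), and the defensins relative to them had -0.34 (-0.45 to -0.24).

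Gene by gene, the defensin sum was lower in the fasted library relative to 5 of the 6. Relative to Lyz1 the log2 ratio was -0.45 (-0.58 to -0.32), with 1.20 defensin counts per Lyz1 count in the fasted and 1.63 in the fed library. Relative to Ang4 it was -0.47 (-0.69 to -0.26), and relative to Itln1 -0.20 (-0.34 to -0.05). Mptx1 gave -2.23 (-3.47 to -1.10) on few counts. Relative to Mptx2 the interval includes 0 (0.17, -0.15 to 0.48).

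Levels between genes were compared as CPM per kb of exon. On this scale Defa24 was highest of the members, with 580.0 in the fasted and 795.1 in the fed library, above 99.4% and 99.5% of all measured genes. Lyz1 had 234.1 in the fasted and 251.1 in the fed library, and Defa30 had 177.7 and 311.5. Exon length takes no account of sequence shared between copies. Per own window Lyz1 had 1.46 counts in the fasted library and Defa30 had 2.14, the reverse order. In CPM per kb, Mmp7 had 98.9 in the fasted library, beside 97.8 for Ang4, and 23.9 in the fed library, beside 103.0 for Ang4. The markers fixed for Paneth cells, Lyz1 and Mmp7, were thus present in both libraries, although the label calls the cells stem cells. The stem cell genes Lgr5 and Olfm4 had 33.2 and 2788 CPM per kb in the fasted library, and 47.2 and 4852 in the fed library. Whether Paneth cells were in the sort or the sorted cells held this RNA was not tested.

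**Figure D4:**
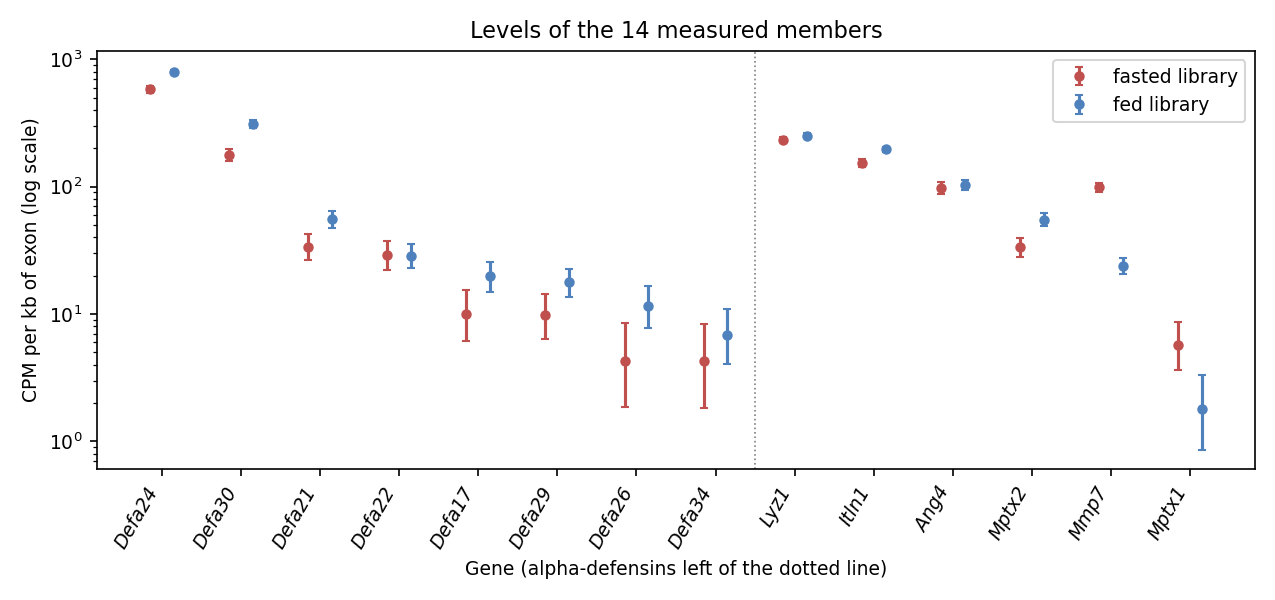
Level of the 14 measured members in CPM per kb of exon (vertical axis, logarithmic) in the fasted (red, left of each pair) and fed (blue) library, with exact 95% Poisson intervals that cover counting error only. Defensins stand left of the dotted line, and the fasted points of Mmp7 and Mptx1 lie above their fed points with intervals that do not overlap.

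The listed promoters of cryptdins and Mmp7 share a short match, and 3 of them are shown because the ratios of their genes had opposite signs. They were taken from RefSeq on GRCm38.p6 and run 250 bases before to 50 bases after the annotated start. Capitals mark the letters CTTTGA on either strand (TCAAAG when read on the other). These letters are a form of the core bound by TCF transcription factors, and the form CTTTGT was neither searched for nor marked. The promoters shown are Defa21 (chr8:21025295-21025594, plus strand), Defa30 (chr8:21134400-21134699, plus strand) and the first of both Mmp7 windows (chr9:7691840-7692139, plus strand).
Defa21: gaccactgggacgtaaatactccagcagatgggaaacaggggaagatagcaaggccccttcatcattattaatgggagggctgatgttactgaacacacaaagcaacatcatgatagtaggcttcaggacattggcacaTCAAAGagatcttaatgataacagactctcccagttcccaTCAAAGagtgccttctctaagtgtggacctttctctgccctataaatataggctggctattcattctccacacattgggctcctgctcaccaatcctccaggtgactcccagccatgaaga
Defa30: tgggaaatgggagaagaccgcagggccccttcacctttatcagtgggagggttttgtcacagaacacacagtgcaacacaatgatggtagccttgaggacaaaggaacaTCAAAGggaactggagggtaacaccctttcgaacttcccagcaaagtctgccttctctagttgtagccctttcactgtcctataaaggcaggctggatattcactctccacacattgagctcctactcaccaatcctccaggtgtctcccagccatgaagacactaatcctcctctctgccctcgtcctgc
Mmp7: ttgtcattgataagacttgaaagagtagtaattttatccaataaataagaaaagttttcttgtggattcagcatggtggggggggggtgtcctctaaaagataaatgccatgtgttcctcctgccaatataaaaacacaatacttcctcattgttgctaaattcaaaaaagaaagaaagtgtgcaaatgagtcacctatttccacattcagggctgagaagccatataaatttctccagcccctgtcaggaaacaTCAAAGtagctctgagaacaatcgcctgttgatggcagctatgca
Windows were listed for 18 members, among them 12 defensins and not Defa24. Of these 12 copies 3 were measured, namely Defa21, Defa22 and Defa30, and the others had no counts or, in Defa28, 1 count. All 12 defensin windows held the match, 8 of them at 2 places, and 16.0% of all 32851 windows of this length held it. In Defa30 it began at position -141 from the start. In Mmp7 it lies just after the annotated start, and both listed windows hold the same copy of it. The window of Mptx1 held the match, and those of Lyz1, Ang4, Itln1 and Mptx2 did not. The letters CTTTGT, read on either strand, do occur in the windows of Lyz1, Ang4 and Mptx2, as in those of Defa21 and Mptx1. In Lyz1, Ang4 and Mptx2 the lack of CTTTGA is thus not the lack of a TCF core. How many of all windows hold CTTTGT was not counted. A further search for CAGCTG, an E-box form bound by basic helix-loop-helix factors, found it in 2 of the 19 member windows, those of Defa28 and Lyz1, against 16.3% of all windows. The defensin windows are near-copies of one another, so their matches are not separate observations. A match describes letters and shows neither binding nor its lack.

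Regulators of the Paneth cell fate and of secretion were mostly within 2-fold. Beside the counts called in this and the following lists, 2.51% of all measured genes were higher and 1.91% lower. Of 18 genes listed 16 were measured, 2 were higher, 0 were lower and the median log2 ratio was 0.18, against -0.10 (-0.13 to -0.06) for the summed counts. The called genes were Bhlha15, a transcription factor of secretory cells (40 fasted and 22 fed counts; 1.36, 0.57 to 2.18), and Ern2, an endoplasmic reticulum stress sensor of mucosal epithelium (74 and 51 counts; 1.03, 0.50 to 1.58). Correction for exon length brought Ern2 to 0.96 and ended its call. The most abundant of the list were Ctnnb1, the WNT effector beta-catenin (5104 fasted and 8199 fed counts; -0.19, -0.24 to -0.14), and Sox9, which Paneth cells need to form (1648 and 2727 counts; -0.23, -0.32 to -0.14).

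The list of signals that Paneth cells give to stem cells, which also holds the surface protein gene Cd24a, had no common direction beyond counting error. Of 9 genes 8 were measured, 1 was higher and 0 were lower. The median log2 ratio was 0.65, with 2 of 8 negative where 52.1% of all measured genes were, but the summed counts, which Cd24a dominates, gave -0.15 (-0.23 to -0.07). The intervals of Wnt3, Wnt9b, Egf and Dll1, which had positive ratios, include 0. That of the Notch ligand gene Dll4, also positive, does not (115 fasted and 109 fed counts, log2 ratio 0.58, 0.18 to 0.97). The higher gene was Bst1, an enzyme of the cell surface that makes cyclic ADP ribose (23 fasted and 13 fed counts; 1.32, 0.28 to 2.42), and its call ended at a minimum of 5 CPM. The Notch ligand gene Dll1 had 270 fasted and 339 fed counts (0.17, -0.07 to 0.40). Cd24a, a surface protein used to sort Paneth cells, had 1430 fasted and 2463 fed counts (-0.29, -0.38 to -0.19).

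Other genes listed for Paneth cell secretion, not all of which encode secreted products, showed no common direction. Of 25 genes listed 18 were measured, 1 was higher and 0 were lower. The log2 ratio was positive in 11 and negative in 7, where 52.1% of all measured genes were negative. The median was 0.19, against -0.11 (-0.14 to -0.09) for the summed counts, which Pigr dominates. The higher gene was Guca2a, which encodes guanylin (151 fasted and 103 fed counts; 1.05, 0.68 to 1.43), and correction for exon length brought it to 0.86, below the call. The most abundant were Pigr, the receptor that carries immunoglobulin A across the epithelium (19456 fasted and 31394 fed counts; -0.19, -0.22 to -0.17), and the lectin gene Reg3b (2299 and 2595 counts; 0.32, 0.24 to 0.40).

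Markers of other cell types also differed between the libraries. Of 9 enterocyte markers 8 were higher and 0 lower, where 2.51% of all measured genes were higher and 1.91% lower, with summed levels of 2467 CPM in the fasted and 950.1 CPM in the fed library. Goblet cell markers numbered 4 higher and 0 lower out of 11 (1285 and 661.4 CPM). Goblet cells can also express Itln1 and Ang4, whose log2 ratios were -0.33 and -0.05. Of 7 stem cell markers 0 were higher or lower and 6 had a negative log2 ratio, where 52.1% of all measured genes did. Their median log2 ratio was -0.30, and their sum was 13193 CPM in the fasted and 20473 CPM in the fed library. Olfm4 made up most of this sum, with 8257 CPM in the fasted and 14373 CPM in the fed library. Enteroendocrine markers (5 of 8 measured, median 0.16) and tuft cell markers (3 of 5 measured, median -0.62) had 0 called. Of 5 immune markers 1 was measured, Cd68, which was lower with 6 fasted and 25 fed counts, and of 4 pancreas markers 1 was measured and none called. The part of these cell types in the granule gene ratios was not tested.

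**Figure D5:**
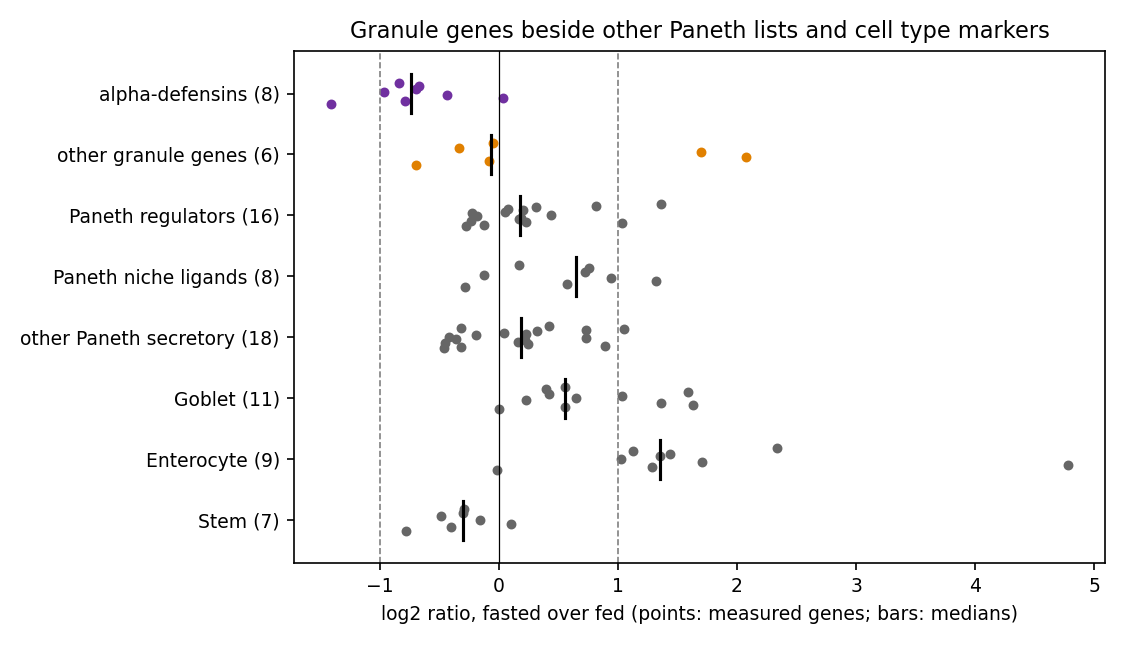
Log2 ratio of fasted to fed (horizontal axis) of each measured gene (points) in the granule genes, other Paneth cell lists and markers of other cell types, with the number of measured genes in brackets and the median as a black bar. Dashed lines mark a 2-fold ratio, and the defensins have the lowest median of the 8 lists drawn.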

How the data were processed

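Counts per Ensembl gene, deposited by the authors as whole numbers without normalisation, were used for 1 fasted library (5020056 counts) and 1 fed library (6985316 counts). FastQC, STAR, HTSeq and DESeq, and the builds GRCm38 and mm10, appear per the submitters' processing notes with no version or role; neither annotation nor strand setting is given in the sources used here. The deposited normalised table holds a signal equal to each count divided by 1 factor per library (0.842 fasted, 1.19 fed). It gave back whole reads for 100% of values in each library (tolerance 0.01 reads), and these reads gave 302 higher and 230 lower genes, as many as the count files.

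Symbols, types and exon lengths came from GENCODE M21, which matched 45143 of 45706 IDs. Counts were scaled by median-of-ratios factors; calls, levels and intervals are as stated in the results. Ratios within a library carry exact conditional odds-ratio intervals. Coding identities came from global alignments (Biopython 1.88), TMM and upper-quartile factors from edgeR 4.0.16, and intervals from SciPy 1.17.1. The length correction subtracts a running median over 201 measured genes in order of exon length. At the short end it is the median of the 201 shortest measured genes. All 22 defensins fell there and had the same correction, 0.109. Only 13 other measured protein-coding genes had exon lengths within the range of the defensins. The calling procedure was tested on simulated counts that held counting error only, so that test says nothing on the spread between mice. Alternatives were scaling, count filter, fold threshold, length correction and choice of copies.

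Members and lists were chosen with earlier results of these data known. Named are all members with a count and, of each other Paneth list, the called genes and the most abundant pair; other genes were chosen after their values were seen.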

Additional observations from a re-analysis of the deposited data

How the results depend on the processing

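No paired analysis was possible because each group has 1 library. TMM, total-count and upper-quartile factors moved no sum by more than its counting interval and changed no count of called members; they set the defensin sum between -0.55 and -0.50 (log2 ratio). Correction for exon length gave -0.64 for the defensin sum, -0.19 for the other granule genes and -0.27 for Lyz1, while Mmp7 kept 1.91. Leaving out Defa24 gave -0.72 for the defensin sum and -0.72 for its ratio to the other genes. That ratio was -0.71 without Itln1 and Ang4, -0.60 without Lyz1 and -0.34 without Mmp7, and the other genes without Mmp7 had -0.18. Defa pseudogenes left the defensin sum at -0.53, and dropping both Defa24 and Defa30 gave -0.58.

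At a minimum of 5 CPM 1 member was higher and 0 were lower. Members called lower numbered 6 at 1.5-fold, where 5.05% of all measured genes were, 0 at 3-fold and 2 after length correction. Shares of all measured genes at 3-fold, at 5 CPM and after length correction are not given, so counts there have none beside them. Regulators called higher numbered 0 at 3-fold and 1 after length correction, and niche ligands 0 at 3-fold and 0 at 5 CPM. Other Paneth secretory genes called higher numbered 3 at 1.5-fold, where 5.11% of all measured genes were, 0 at 3-fold and 0 after length correction. The cause of these changes was not tested beyond what the thresholds fix. Leaving out Mmp7, leaving out both Defa24 and Defa30, adding RefSeq copies and using the deposited normalised values were chosen after seeing the data. At this depth, copies with under 20 counts allow no statement on direction.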
